A study of Mus musculus with 22 samples.

Results

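The genotype effect, meaning the level in APP/PS1 mice minus that in wild-type (WT) littermates, was compared between cortical astrocytes and cortical microglia. The comparison was an interaction: the APP/PS1 minus WT difference within the astrocyte arrays, minus the same difference within the microglia arrays. It drew on all 22 of the 22 samples of the series, with dye as a covariate, and tested 21171 of the 22485 genes on the arrays. Each gene was represented by 1 probe, the one with the highest mean over the 22 samples, and had to have a value on at least 2 astrocyte arrays and 3 microglia arrays.

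All mice had the C57BL/6 background and were 15 to 18 months old. APP/PS1 mice carry the APPswe and PS1dE9 transgenes, which in this line are driven by prion protein promoter sequence and lead to amyloid plaques in the cortex; the WT mice were their littermates. Astrocytes (4 APP/PS1 and 4 WT samples) were sorted from papain-dissociated cortex as GLT1-positive, CD11b-negative cells, and microglia (7 and 7) as cells positive for both CD11b and CD45, in each case after depletion of myelin, exclusion of O4-positive cells and removal of dead cells with 7AAD. RNA was amplified linearly and hybridised to dual-colour Agilent arrays, an APP/PS1 and a WT sample of 1 cell type and 1 replicate number sharing each array. The series describes the samples as biological replicates; whether astrocytes and microglia came from the same mice is not stated. Values are deposited log2 levels, and effects are log2 differences ± standard error. The fit used 1 spread per gene for both cell types, so the standard errors of the cell types differ mainly through the number of arrays. Array weights estimated from the data were 0.652 for astrocyte and 1.276 for microglia arrays, so astrocyte arrays varied more.

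Astrocytes supply neurons with cholesterol, serine and lactate, clear glutamate through the transporters Slc1a2 (GLT1) and Slc1a3, and raise the intermediate filament gene Gfap when they become reactive. Microglia are the resident macrophages of the brain. Around amyloid plaques they lose homeostatic transcripts such as Tmem119 and Cx3cr1 and gain a disease-associated set that includes Cst7, Clec7a and Gpnmb, and both cell types can respond to interferon.

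Slide 3 held every astrocyte array, and slides 1 and 2 the microglia arrays. The cell types therefore cannot be told apart from the slides in the interaction, while each genotype effect was measured within arrays. Of 43020 probes, 42427 to 42869 were measured on astrocyte arrays and 32045 to 40771 on microglia arrays. On 4 arrays (astrocyte replicates 1 and 3, microglia replicates 1 and 7) the 2 samples differed by 2.74 to 6.07 in the Y-linked gene Eif2s3y, against -0.94 to 0.92 on the other 7; values on those 7 alone (the matched arrays) are given beside some results below. Astrocyte markers marked the astrocyte samples and microglia markers the microglia samples. Summed levels (log2 of the summed linear values) were taken over the markers measured on every array. For 14 astrocyte markers they were 17.61 to 19.85 in astrocyte samples and 11.61 to 13.17 in microglia samples. The markers of other cells also moved with genotype in the sorted astrocytes. There, 12 of 15 microglia markers rose and 2, Siglech and Itgam, fell (median 1.76; 3.38, 1.64, 1.79 and 0.48 on the arrays of replicates 1 to 4). The 14 microglia markers measured on every array had summed levels that overlapped between the genotypes, at 14.88 to 15.84 in WT and 14.45 to 15.87 in APP/PS1 astrocytes. Microglia samples had 19.25 to 19.81. This sum includes the brightest Siglech probe, which fell on every astrocyte array (-0.95, -0.92, -0.52 and -0.69). A second Siglech probe had an astrocyte effect of 1.67 ± 0.40, so the overlap rests in part on a probe in doubt. On the matched arrays the median rise of the microglia markers was 0.95, and the number whose effects differed went from 12 of 15 to 7 of 14. Endothelial markers rose in 10 of 11 cases and fell in 0 (median 1.12), and mural cell markers rose in 7 of 10 and fell in 0 (median 1.92). The 7 mural markers measured on every array summed to 14.38 to 17.18 in WT and 16.71 to 18.60 in APP/PS1. The part of these cells in the results below was not tested, and in sorted pools fewer cells of a type cannot be told apart from less RNA per cell.

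The genotype effects of the 2 cell types were weakly correlated. Across the 21171 genes the value was Pearson's r = 0.119 (Spearman's rho = 0.083), a description over genes, which are not independent replicates; the effects share no sample but do share a platform and a set of probes. The effects differed in 6010 genes (28.4% of those tested; limma, Benjamini-Hochberg adjusted p below 0.05), of which 3021 (14.3%) had the higher effect in astrocytes and 2989 (14.1%) in microglia. In astrocytes 3452 genes rose with the APP/PS1 genotype (16.3%) and 4075 fell (19.2%), and in microglia 1908 rose (9.01%) and 2612 fell (12.3%). The excess in astrocytes depended on the shared spread. With a spread for each cell type, 2669 genes rose and 2889 fell in astrocytes, and 2324 rose and 3272 fell in microglia. A further 2299 genes had an unadjusted p below 0.05 for the difference without passing the adjusted threshold.

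More genes changed the same way in both cell types than in opposite directions. In 1495 genes (7.06% of those tested) both effects passed with the same sign, 624 rising in both (2.95%) and 871 falling in both (4.11%). In 922 genes (4.36%) the effects passed with opposite signs and the difference passed too; 516 rose in astrocytes and fell in microglia (2.44%), and 406 rose in microglia and fell in astrocytes (1.92%). Of the 6010 genes with a difference, 3371 passed in astrocytes alone, 1061 in microglia alone, 340 in both with 1 sign (246 of them with the larger effect in astrocytes) and 316 in neither. In 2221 of the 6010 the effects lay over 2-fold apart and in 381 over 4-fold, and in 3841 genes (18.1% of those tested) the difference passed and no astrocyte array value overlapped a microglia one. These counts rest on the pairing within arrays: without the array as a block the difference passed in 1564 genes, 227 genes changed the same way and 164 in opposite directions.

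**Figure D1:**
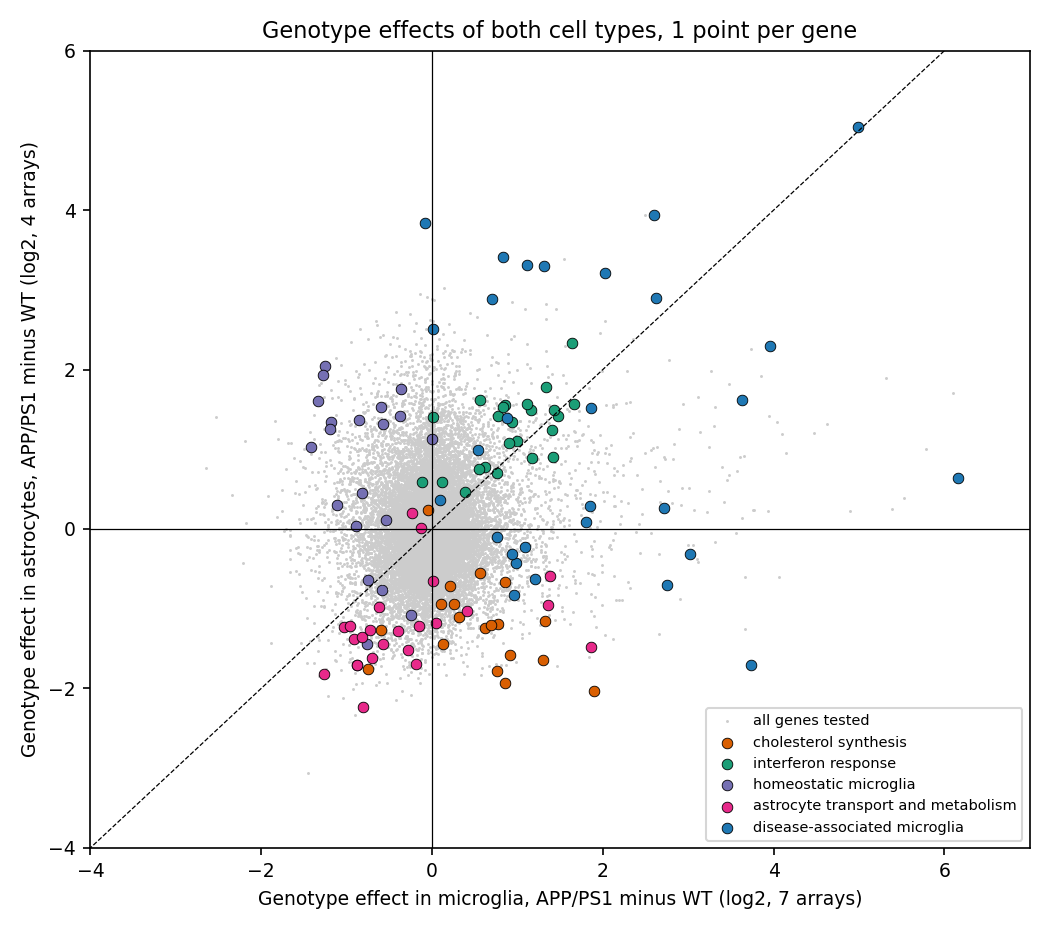
Genotype effect in microglia (x axis, log2, 7 arrays) against that in astrocytes (y axis, log2, 4 arrays), 1 point per gene for the 21171 genes tested, with 5 gene lists in colour and the dashed line marking equal effects. Cholesterol synthesis genes lie mostly at lower right (median effects 0.62 in microglia and -1.21 in astrocytes), homeostatic microglia genes mostly at upper left (-0.79 and 1.19), and interferon response genes near the line (0.92 and 1.37).

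Genes of cholesterol synthesis fell in APP/PS1 astrocytes, and most of them rose in APP/PS1 microglia. Of 19 genes tested from the mevalonate and sterol pathway, 18 fell and 0 rose in astrocytes, 11 rose and 2 fell in microglia, and the effects differed in 18, in each case with the lower effect in astrocytes. All 11 that rose in microglia fell in astrocytes. The median effect was -1.21 in astrocytes, 0.62 in microglia and -1.57 for the difference, where the medians over all genes tested were -0.072, -0.035 and -0.038. The 2 genes that fell in both were Mvd and Insig1, and the 1 gene without a difference was the isomerase gene Ebp; these 3 are named because of their values.

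Sqle encodes squalene epoxidase, a rate-limiting step of the sterol branch. Its levels in astrocytes were 14.03, 14.45, 14.22 and 14.13 in WT replicates 1 to 4 and 11.63, 12.14, 13.19 and 11.74 in the APP/PS1 replicates on the same arrays. In microglia they ran from 5.57 through a median of 6.78 to 7.30 in WT and from 8.09 through 8.64 to 9.11 in APP/PS1. The APP/PS1 samples were thus below all WT samples in astrocytes and above all of them in microglia. The effects were -2.03 ± 0.27 in astrocytes and 1.90 ± 0.20 in microglia, and they differed by -3.94 ± 0.33 (limma adjusted p = 6.28e-05).

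Hmgcs1, the synthase that makes the substrate of HMG-CoA reductase, followed the same course. Its WT astrocyte levels were 14.64, 14.53, 14.52 and 14.56, and the APP/PS1 levels 12.40, 12.48, 13.24 and 12.37. WT microglia ranged from 9.78 to 10.70 (median 10.34) and APP/PS1 microglia from 10.70 to 11.58 (median 11.04). The groups were apart in astrocytes and met at their edges in microglia, yet all 7 microglia arrays had the higher value in the APP/PS1 sample. The effects of -1.94 ± 0.16 and 0.85 ± 0.12 differed by -2.79 ± 0.20 (limma adjusted p = 4.02e-05).

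Further enzymes of the pathway were spread over its length. The isopentenyl diphosphate isomerase gene Idi1 changed by -1.65 ± 0.17 in astrocytes and 1.30 ± 0.13 in microglia, the farnesyl diphosphate synthase gene Fdps by -1.19 ± 0.10 and 0.78 ± 0.08, and the lanosterol demethylase gene Cyp51 by -1.15 ± 0.10 and 1.32 ± 0.08. Each microglia slide was also taken alone. With slide 1 alone 17 of the 19 genes differed (median -1.60), and with slide 2 alone 17 (median -1.56). The number that rose in microglia and fell in astrocytes was 8 and 6 there, 6 without the array block, and 9 to 12 when single arrays were left out. Astrocyte markers fell on the same astrocyte arrays (15 of 16 fell and 1, Gfap, rose; median -1.32). The median fall of both lists was smallest in astrocyte replicate 3, at -0.81 for the cholesterol genes and -0.30 for the markers, and largest in replicate 1, at -1.56 and -2.15.

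The promoter of Hmgcs1 is shown because it held the only match, among the 16 cholesterol genes with a promoter in the RefSeq table, to the sterol regulatory element TCACNCCAC, the motif bound by the SREBP transcription factors. Both strands were searched from 250 bases before to 50 bases after each start. The match lies 137 bases before the start, is in capitals, and reads on the gene's strand (GRCm38.p6, chr13:119690194-119690242, plus strand, 5′ to 3′):
Hmgcs1: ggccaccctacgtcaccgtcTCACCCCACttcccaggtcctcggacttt
This exact spelling was found in 1.39% of the 16156 tested genes with a promoter, so that 1 of 16 (6.25%) is a description of this window and no more.

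Glycolysis genes also moved apart. Of 20 tested, the effects differed in 13 (65.0%), always with the lower effect in astrocytes. Over all genes tested the effects differed in 28.4%, with the lower effect in astrocytes in 14.1%. The list is bright, with a median WT level of 13.91 in astrocytes. Effects differed in 55.8% of genes with a highest group mean of 12 to 14 and in 67.1% at 14 and above. In astrocytes 11 of the 20 fell and 1 rose, in microglia 12 rose and 3 fell, and 5 rose in microglia and fell in astrocytes. The triose phosphate isomerase gene Tpi1 stood at 14.43, 14.76, 14.79 and 14.63 in WT astrocytes and 13.82, 13.75, 14.16 and 13.86 in APP/PS1 astrocytes. In microglia it ran from 12.03 to 12.43 (median 12.26) in WT and 13.31 to 13.96 (median 13.59) in APP/PS1. Neither pair of groups overlapped, and APP/PS1 samples of the 2 cell types lay closer together than WT samples did. The difference of effects was -2.12 ± 0.12 (limma adjusted p = 1.38e-05). A dimmer probe of Tpi1 had a smaller astrocyte fall, -0.30 ± 0.12 against -0.75, and a difference of -1.72 ± 0.15. The phosphoglycerate kinase gene Pgk1 (-0.83 ± 0.14 and 1.47 ± 0.11), the mutase gene Pgam1 (-0.76 ± 0.10 and 0.82 ± 0.08) and the aldolase gene Aldoa (-0.26 ± 0.08 and 0.75 ± 0.06) also moved apart. The median differences were -0.78 with slide 1 alone and -0.81 with slide 2 alone.

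Other genes of this opposite class act in serine synthesis, lipid binding and vessel growth. Psat1, a transaminase of the serine pathway by which astrocytes make serine, had levels of 13.85, 14.24, 14.10 and 13.91 in WT and 11.82, 12.46, 13.76 and 12.15 in APP/PS1 astrocytes. In microglia it rose from 10.25 to 10.91 (median 10.54) to 12.06 to 12.57 (median 12.46). Neither pair of groups overlapped, with astrocyte replicate 3 nearest to its WT partner. The difference was -3.35 ± 0.29 (limma adjusted p = 7.37e-05), and a second, dimmer probe gave -2.73 ± 0.21.

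Fabp5 encodes a fatty acid binding protein that is counted among both astrocyte and disease-associated microglia genes. Astrocytes had 15.37, 15.48, 15.28 and 15.50 in WT and 13.03, 13.55, 14.71 and 13.48 in APP/PS1. Microglia had 9.42 to 10.28 (median 9.86) in WT and 13.32 to 13.80 (median 13.63) in APP/PS1. A gap of over 5 log2 units between WT astrocytes and WT microglia thus shrank until the APP/PS1 samples of the 2 cell types overlapped. The effects of -1.71 ± 0.23 and 3.74 ± 0.18 differed by -5.45 ± 0.29 (limma adjusted p = 1.29e-05). The probe of the near-identical copy Fabp5l2 gave -5.39, and the arrays may not tell the copies apart.

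Vegfa, the endothelial growth factor gene that responds to low oxygen, stood at 13.22, 13.92, 13.26 and 13.33 in WT and 11.31, 12.27, 12.70 and 11.93 in APP/PS1 astrocytes. It ran from 8.47 to 9.80 (median 9.28) in WT and 10.31 to 11.85 (median 11.32) in APP/PS1 microglia. No APP/PS1 sample reached the WT range of its cell type. The difference was -3.49 ± 0.17 (limma adjusted p = 1.1e-05) and -4.58 ± 0.32 by a second probe. The same pattern was seen for the mitochondrial adenylate kinase gene Ak4 (-1.32 ± 0.23 and 2.66 ± 0.17), the tissue factor gene F3 (-1.61 ± 0.32 and 1.84 ± 0.24), the chemokine gene Cxcl14 (-1.72 ± 0.20 and 1.46 ± 0.15), the sulfotransferase gene Chst10 (-1.33 ± 0.25 and 2.03 ± 0.19) and the ETS factor gene Etv4 (-1.71 ± 0.15 and 0.87 ± 0.11). A dim second probe of Ak4 gave a difference of -2.03, against -3.98.

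**Figure D2:**
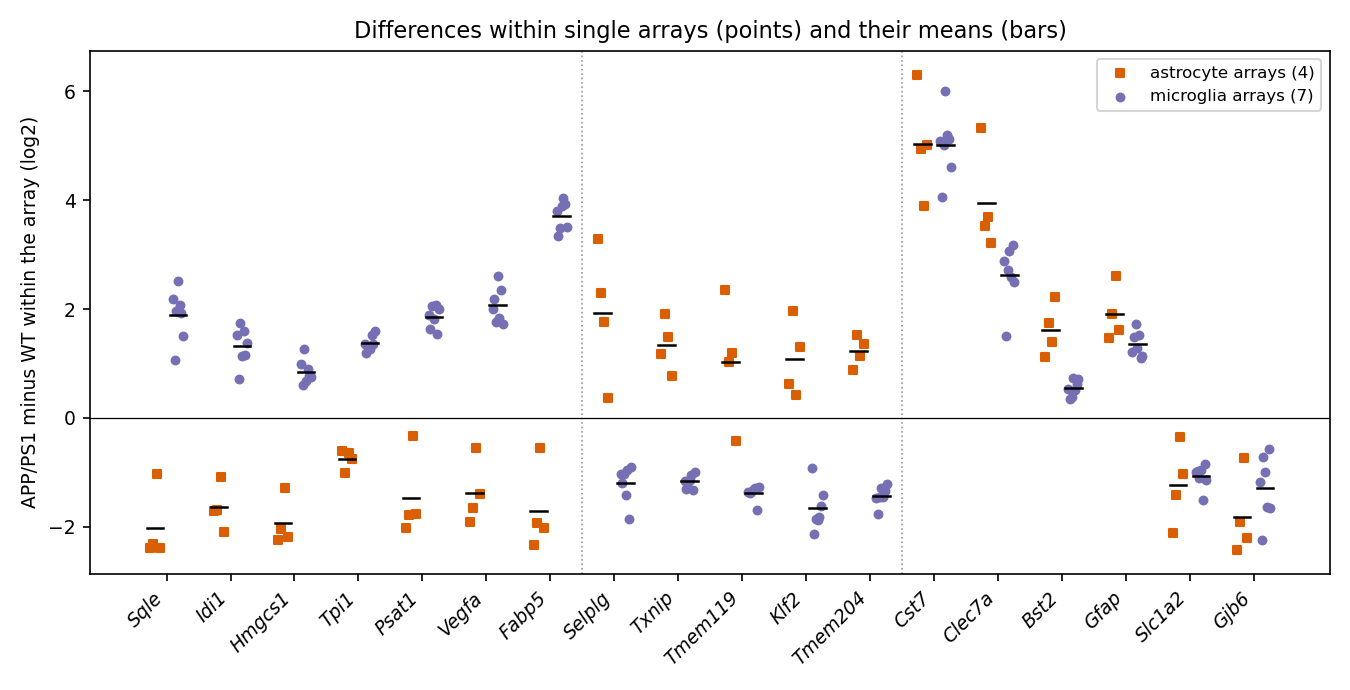
APP/PS1 minus WT difference on each array (y axis, log2) for 18 genes, with squares for the 4 astrocyte arrays, circles for the 7 microglia arrays and bars for their means. The 7 genes at left fall on every astrocyte array and rise on every microglia array, the 5 in the middle fall on every microglia array and rise on the astrocyte arrays with the exception of 1 array for Tmem119 (-0.42), and the 6 at right move the same way in both.

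Homeostatic microglia genes fell in APP/PS1 microglia and rose in the APP/PS1 astrocyte samples. Of 20 tested, 16 fell and 0 rose in microglia, 13 rose and 4 fell in the astrocyte samples, and the effects differed in 18 (16 with the higher effect in astrocytes). The 10 genes that went in opposite directions became 6 to 10 when single arrays were left out; it was 6 without microglia replicate 1 and 6 without microglia replicate 5. It was 3 with slide 1 alone, 2 with slide 2 alone, 3 without the array block and 3 on the arrays matched in Eif2s3y, while a difference was found for 17, 13, 13 and 13 genes there (of 18 tested with slide 2 and 19 on the matched arrays). The median difference of the list was 1.84, with slide values of 1.74 and 2.22 and a value of 1.42 on the matched arrays. In the same astrocyte samples 12 of the 15 microglia markers rose and 2 fell, as given above, and the list's median WT level was 7.61 in astrocytes and 14.36 in microglia. The brightest probe of Siglech was high in WT astrocytes too (14.41) and gave a difference of -0.18 (limma adjusted p = 0.332), whereas a second probe gave 2.31 ± 0.50.

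Selplg, the P-selectin ligand gene expressed by homeostatic microglia, had astrocyte levels of 7.16, 5.81, 6.31 and 8.12 in WT and 10.45, 8.11, 8.08 and 8.48 in APP/PS1. Microglia had 15.77 to 16.81 (median 16.02) in WT and 14.72 to 15.10 (median 14.95) in APP/PS1. The microglia groups were apart, and the astrocyte groups overlapped although each APP/PS1 sample exceeded its WT partner. The effects of 1.93 ± 0.27 and -1.27 ± 0.20 differed by 3.20 ± 0.33 (limma adjusted p = 0.000165), and a second probe gave 1.91 ± 0.25.

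Tmem119, a membrane protein gene used as a microglia marker, stood at 6.47, 5.48, 5.75 and 7.5 in WT and 8.82, 6.5, 6.94 and 7.09 in APP/PS1 astrocyte samples. WT microglia ranged from 15.10 to 16.12 (median 15.34) and APP/PS1 microglia from 13.75 to 14.43 (median 14.04). The fall in microglia was seen on 7 of 7 arrays and the rise in astrocytes on 3 of 4. The difference of 2.45 ± 0.36 (limma adjusted p = 0.000933) was 1.65 on the arrays matched in Eif2s3y, where the astrocyte effect was 0.30. Cx3cr1, the fractalkine receptor gene (2.04 ± 0.43 and -1.25 ± 0.33), and Csf1r, the receptor gene for the survival factor CSF1 (1.61 ± 0.36 and -1.34 ± 0.28), did likewise, but 4 and 5 of their 7 WT microglia values came to within 0.5 of the table's maximum, which limits them. Other probes of Csf1r gave smaller differences, 1.64 ± 0.34 and 0.50 ± 0.20; the second did not pass (limma adjusted p = 0.0888) and had an astrocyte effect of -0.09 ± 0.16. On the matched arrays Cx3cr1 lost its difference (2.13, limma adjusted p = 0.0514).

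Some genes of this class were well expressed in both cell types. Txnip, which binds thioredoxin and restrains glucose uptake, had 10.54, 9.92, 9.03 and 11.05 in WT and 11.73, 11.82, 10.53 and 11.83 in APP/PS1 astrocytes. It had 13.34 to 13.89 (median 13.61) in WT and 12.20 to 12.61 (median 12.46) in APP/PS1 microglia. Within arrays the rise in astrocytes ran from 0.77 to 1.90 and the fall in microglia from -1.33 to -1.0, although the astrocyte groups overlapped. The difference was 2.52 ± 0.17 (limma adjusted p = 3.84e-05) and 2.50 on the matched arrays.

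Klf2, a transcription factor gene of quiescent endothelium and myeloid cells, was brighter in astrocyte samples than in microglia. Its levels there were 14.05, 12.26, 12.98 and 12.66 in WT and 14.67, 14.23, 13.40 and 13.96 in APP/PS1. In microglia they were 11.79 to 12.42 (median 12.15) in WT and 9.97 to 10.88 (median 10.51) in APP/PS1. The microglia groups did not overlap and the astrocyte groups did. The difference was 2.77 ± 0.29 (limma adjusted p = 0.00017), with 3.0 for slide 1 and 2.47 for slide 2.

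Tmem204, a gene of endothelial cell junctions, ran alongside. In astrocyte samples it had 10.79, 10.28, 9.21 and 10.78 in WT and 11.67, 11.79, 10.35 and 12.14 in APP/PS1, and in microglia 8.61 to 9.93 (median 9.53) and 7.32 to 8.71 (median 8.08). Its groups overlapped in both cell types while its within-array differences were among the tightest, 0.88 to 1.52 in astrocytes and -1.77 to -1.22 in microglia. The difference was 2.66 ± 0.15 (limma adjusted p = 1.38e-05), and 2.66 without the array block (limma adjusted p = 0.00298). Endothelial markers rose in the same astrocyte samples (10 of 11). The 10 measured on every array summed to 16.88 to 17.98 in WT and 18.00 to 18.74 in APP/PS1. The transglutaminase gene Tgm2 (1.74 ± 0.22 and -1.18 ± 0.16), the sodium channel subunit gene Scn2b (1.80 ± 0.26 and -1.33 ± 0.20) and Trnp1 (1.83 ± 0.27 and -1.30 ± 0.20) were also in this class; a dimmer probe of Trnp1 gave -0.30 ± 0.15 in microglia and a difference of 1.74.

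Immediate early and dissociation stress genes, which respond within minutes to stimulation and to tissue handling, rose in APP/PS1 astrocytes. Of 27 tested, 22 rose and 0 fell there, 8 rose and 8 fell in microglia, and the effects differed in 21 (20 with the higher effect in astrocytes). The genes that rose in both numbered 7 and those that rose in astrocytes and fell in microglia 6, against 4 to 7 and 3 to 7 when single arrays were left out; the second count was 3 without microglia replicate 4 and 3 without replicate 7. Without the array block they were 0 and 2, with 10 genes differing, with slide 1 alone 2 and 2, and with slide 2 alone 3 and 0. On the matched arrays they were 2 and 3, with 15 genes differing. The list's median was 1.27, 1.47, 0.90 and 0.74 on astrocyte replicates 1 to 4, where mural markers had 1.67, 3.34, 2.18 and 0.78 and microglia markers 3.38, 1.64, 1.79 and 0.48. All 3 lists were lowest in replicate 4, whereas endothelial markers, with 0.28, 1.47, 0.92 and 1.89, were highest there. The part of these cells in the result was not tested. Fos changed by 2.21 ± 0.22 in astrocytes and by -0.20 ± 0.17 in microglia (2.43, 2.91, 2.30 and 1.19 on the 4 astrocyte arrays), the stress factor gene Atf3 by 1.81 ± 0.20 and -0.37 ± 0.15, and the phosphatase gene Dusp2 by 2.41 ± 0.29 and -0.45 ± 0.22. None of these 3 passed in microglia (limma adjusted p = 0.473, 0.128 and 0.187).

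**Figure D3:**
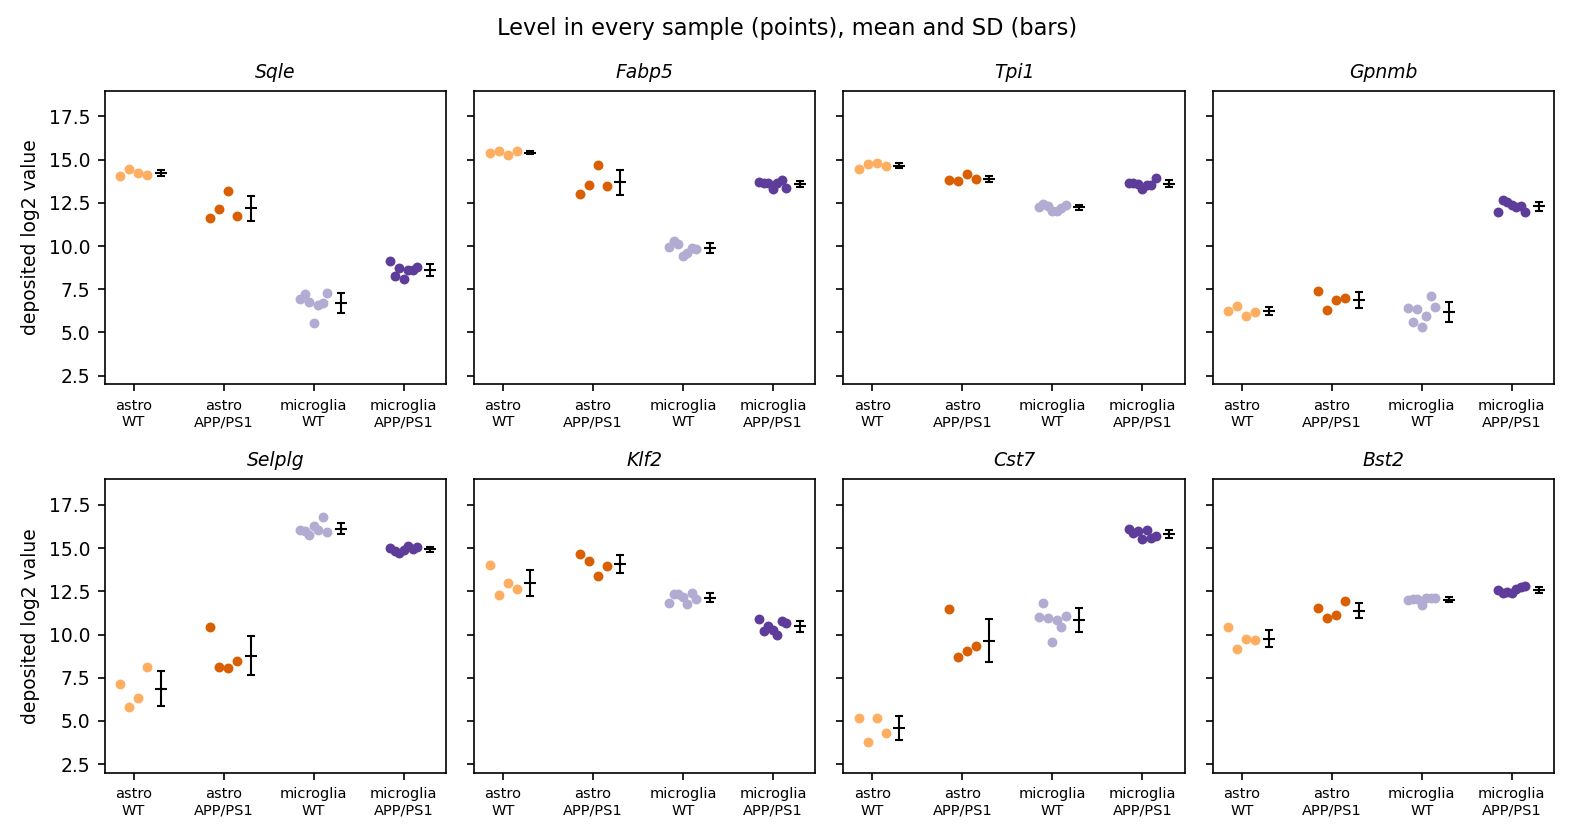
Deposited log2 level in every sample (points) with mean and SD (bars) for 8 genes in WT and APP/PS1 astrocytes (4 each) and WT and APP/PS1 microglia (7 each). Fabp5 levels of the 2 cell types meet in APP/PS1 mice, Selplg and Klf2 fall in microglia and are higher in APP/PS1 astrocytes, Cst7 rises in both, and Gpnmb rises in microglia (6.16) while its astrocyte value of 0.64 did not pass.

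Interferon response genes moved together. Of 24 tested, 24 rose in astrocytes and 21 in microglia, and 0 fell in either. The 21 rose in both, and the effects differed in 4, each with the higher effect in astrocytes; 3 of these were the genes that did not rise in microglia. The medians were 1.37 in astrocytes, 0.92 in microglia and 0.27 for the difference. The last value rested on single arrays: it was 0.05 without astrocyte replicate 4, 0.11 without replicate 2, 0.47 without replicate 1 and 0.69 on the matched arrays, and 0.35 and 0.13 with microglia slides 1 and 2 alone. The count of genes that rose in both was 16 to 21 when single arrays were left out, 15 without the array block, 9 with slide 1 alone and 10 with slide 2 alone. On astrocyte replicates 1 to 4 the list's median was 0.42, 1.35, 1.27 and 1.91. Endothelial markers had medians of 0.28, 1.47, 0.92 and 1.89 on these arrays, in the same order. Microglia markers had 3.38, 1.64, 1.79 and 0.48, highest in replicate 1 and lowest in replicate 4. Mural markers had 1.67, 3.34, 2.18 and 0.78, highest in replicate 2 and lowest in replicate 4. The part of any of these cells in the result was not tested.

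Bst2, the tetherin gene that holds budding viruses at the cell surface, had 10.41, 9.19, 9.76 and 9.69 in WT and 11.52, 10.94, 11.15 and 11.92 in APP/PS1 astrocytes. It had 11.70 to 12.12 (median 12.07) in WT and 12.40 to 12.81 (median 12.56) in APP/PS1 microglia. Neither pair of groups overlapped. The rises of 1.62 ± 0.15 and 0.56 ± 0.12 differed by 1.06 ± 0.19 (limma adjusted p = 0.00275), a call lost with slide 2 alone (0.96, limma adjusted p = 0.0713). Parp14, a mono-ADP-ribosyltransferase gene, rose in astrocytes (1.40 ± 0.15) and stayed within its error in microglia (0.01 ± 0.11).

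The promoters of these genes were searched in the same windows for the interferon-stimulated response element. It is bound by complexes of STAT and IRF factors and spelled here as GAAA, any 2 bases, GAAA. The motif occurred in 10 of the 16 interferon genes with a promoter in the table (62.5%) and in 9 of 14 that rose in both (64.3%). It occurred in 627 of 16156 tested genes (3.88%). The list was chosen as genes that respond to interferon, so its high share describes the list and not the shared rise. Among all genes that rose in both cell types, 30 of 459 with a promoter held the motif (6.54%). Shown are 5 promoter stretches with their matches in capitals (GRCm38.p6, gene strand, 5′ to 3′); matches may overlap each other, and TTTC, any 2 bases, TTTC is a match on the other strand. They lie at chr4:156200855-156200916 (Isg15, minus strand), chr19:34640765-34640833 (Ifit1, plus), chr5:120907526-120907565 (Oas1a, minus), chr5:92349073-92349122 (Cxcl10, minus) and chr8:71537567-71537622 (Bst2, minus):
Isg15: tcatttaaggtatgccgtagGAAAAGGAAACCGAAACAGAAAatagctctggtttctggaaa
Ifit1: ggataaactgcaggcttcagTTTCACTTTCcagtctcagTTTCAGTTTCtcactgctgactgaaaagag
Oas1a: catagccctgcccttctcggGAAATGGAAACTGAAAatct
Cxcl10: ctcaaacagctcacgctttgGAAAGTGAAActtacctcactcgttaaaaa
Bst2: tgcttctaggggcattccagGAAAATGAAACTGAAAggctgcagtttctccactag
The ubiquitin-like modifier gene Isg15 changed by 1.49 in astrocytes and 1.16 in microglia, the RNA-binding effector gene Ifit1 by 1.10 and 1.00, the oligoadenylate synthetase gene Oas1a by 1.49 and 1.43 and the chemokine gene Cxcl10 by 1.57 and 1.12. None of these 4, chosen after their values were seen, passed for a difference. A match describes the letters of the window and not a bound site.

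Several disease-associated microglia genes rose in both cell types, others in microglia alone. Of 29 tested, 26 rose and 0 fell in microglia, 16 rose and 3 fell in astrocytes, and 13 rose in both. The effects differed in 23, with the higher effect in astrocytes in 8 and in microglia in 15. Microglia markers rose in 12 of 15 cases and fell in 2 in the same astrocyte samples.

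Cst7, a cystatin gene hardly seen in resting brain, had 5.16, 3.76, 5.17 and 4.30 in WT and 11.47, 8.71, 9.06 and 9.31 in APP/PS1 astrocyte samples. It had 9.55 to 11.84 (median 10.98) in WT and 15.55 to 16.09 (median 15.90) in APP/PS1 microglia. The groups were apart in both cell types, and APP/PS1 astrocyte samples stayed below APP/PS1 microglia. The rises of 5.04 ± 0.35 and 4.99 ± 0.27 were not shown to differ (0.05 ± 0.44, limma adjusted p = 0.945). The integrin gene Itgax (2.89 ± 0.20 and 2.62 ± 0.15) also rose in both. Its difference of 0.27 passed only when astrocyte replicate 2 was left out (0.60, limma adjusted p = 0.0404). The proteoglycan gene Cspg4 (2.38 ± 0.32 and 2.36 ± 0.24), listed here as an oligodendrocyte precursor marker, rose in both as well.

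Clec7a, the beta-glucan receptor gene, rose more in the astrocyte samples. Its levels there were 4.51, 3.75, 3.82 and 4.47 in WT and 9.83, 7.27, 7.52 and 7.69 in APP/PS1. Microglia had 10.99 to 13.03 (median 12.03) in WT and 14.07 to 14.87 (median 14.75) in APP/PS1. Groups did not overlap, and the highest APP/PS1 astrocyte value was that of replicate 1. The difference of 1.34 ± 0.41 (limma adjusted p = 0.0351) was lost without astrocyte replicate 1 (0.87, limma adjusted p = 0.106) and passed in 12 of 24 alternatives; it was lost too without astrocyte replicate 3 and without each of microglia replicates 1, 2, 3, 5 and 7, and was 0.75 on the matched arrays. Trem2, the lipid-sensing receptor gene, and Tyrobp, its signalling adaptor, also rose in both and more in astrocyte samples (differences of 2.20 ± 0.35 and 2.57 ± 0.31).

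Gpnmb, a transmembrane glycoprotein gene of phagocytes, was at 6.26, 6.55, 5.94 and 6.21 in WT and 7.37, 6.30, 6.86 and 6.98 in APP/PS1 astrocyte samples. Microglia went from 5.31 to 7.10 (median 6.38) in WT to 11.96 to 12.64 (median 12.33) in APP/PS1. The astrocyte groups overlapped at the level that WT microglia had. Its effect was 0.64 ± 0.31 in astrocytes (limma adjusted p = 0.142) and 6.16 ± 0.24 in microglia, a difference of -5.52 ± 0.39 (limma adjusted p = 4.02e-05). The prolyl hydroxylase gene Egln3 (0.25 ± 0.42 and 5.38 ± 0.32), the phosphate transporter gene Ank (-0.31 ± 0.22 and 3.03 ± 0.17) and the lipid droplet gene Plin2 (0.06 ± 0.13 and 1.82 ± 0.10) likewise passed in microglia and not in astrocytes, and their effects differed. Probes of the growth factor gene Csf1 disagreed on astrocytes: the brightest gave 0.09 ± 0.17 there and 1.81 ± 0.13 in microglia, while a dimmer pair gave astrocyte effects of 1.08 ± 0.21 and 1.09 ± 0.20 and differences of -0.96 and -0.94, against -1.72.

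Ccl4, a chemokine gene of activated microglia, showed the reverse. It had 7.59, 5.97, 4.44 and 8.36 in WT and 12.84, 9.44, 9.25 and 10.16 in APP/PS1 astrocyte samples. In microglia it was near 16 in all samples, 16.09 to 16.67 (median 16.40) in WT and 16.03 to 16.68 (median 16.34) in APP/PS1. The astrocyte groups were apart and the microglia groups overlapped nearly in full. The effects of 3.84 ± 0.44 and -0.09 ± 0.33 differed by 3.92 ± 0.55 (limma adjusted p = 0.00073), and by 2.64 on the arrays matched in Eif2s3y. Rgs1, a brake on chemokine receptors, rose from 4.28, 3.36, 3.49 and 5.25 to 7.67, 6.82, 5.69 and 6.61 in astrocyte samples and fell by 0.66 ± 0.20 in microglia (difference 3.26 ± 0.33, limma adjusted p = 0.000139).

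Most astrocyte genes fell in astrocytes, and some of them fell in microglia too. Of 24 genes of astrocyte transport and metabolism, 22 fell and 0 rose in astrocytes, 11 fell and 4 rose in microglia, and 11 fell in both; the 4 that rose in microglia all fell in astrocytes. The effects differed in 11 (45.8%), always with the lower effect in astrocytes. Over all genes the share was 28.4%, and at a highest group mean of 14 and above it was 67.1%. The list's median WT level was 14.13 in astrocytes and 6.76 in microglia. In microglia its 21 genes measured on every array summed to 14.38 to 15.02 in WT and 13.98 to 14.61 in APP/PS1 samples. The 14 astrocyte markers measured on every array summed to 12.08 to 13.17 in WT and 11.61 to 12.69 in APP/PS1 microglia.

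Slc1a2, the gene of the sorting antigen GLT1, had 16.08, 16.20, 16.11 and 15.70 in WT and 13.96, 14.78, 15.77 and 14.65 in APP/PS1 astrocytes. In microglia it had 6.08 to 7.70 (median 7.01) in WT and 5.12 to 6.63 (median 5.89) in APP/PS1. The groups overlapped in both cell types, and the value fell on 11 of 11 arrays. The falls, -1.23 ± 0.18 and -1.03 ± 0.13, were not shown to differ (-0.20 ± 0.22, limma adjusted p = 0.556). The connexin gene Gjb6 (-1.82 ± 0.31 and -1.27 ± 0.23) fell in both as well, with a difference of -0.55 ± 0.39 (limma adjusted p = 0.327).

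Gfap rose in both. It had 7.57, 7.89, 7.57 and 7.43 in WT and 9.02, 9.80, 10.18 and 9.05 in APP/PS1 astrocytes. Microglia had 4.96 to 6.04 (median 5.57) and 6.25 to 7.28 (median 7.04). No groups overlapped within a cell type, and microglia levels were lower throughout. The difference of 0.54 ± 0.22 missed the threshold (limma adjusted p = 0.0946) and passed with the array as a random block (limma adjusted p = 0.0434). Of 13 pan-reactive astrocyte genes tested, 9 rose in astrocytes and 4 in microglia, and 6 differed, among them the sphingosine phosphate receptor gene S1pr3 (2.10 ± 0.24 and -0.07 ± 0.19) and the small heat shock protein gene Hspb1 (0.90 ± 0.14 and -0.37 ± 0.11).

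**Figure D4:**
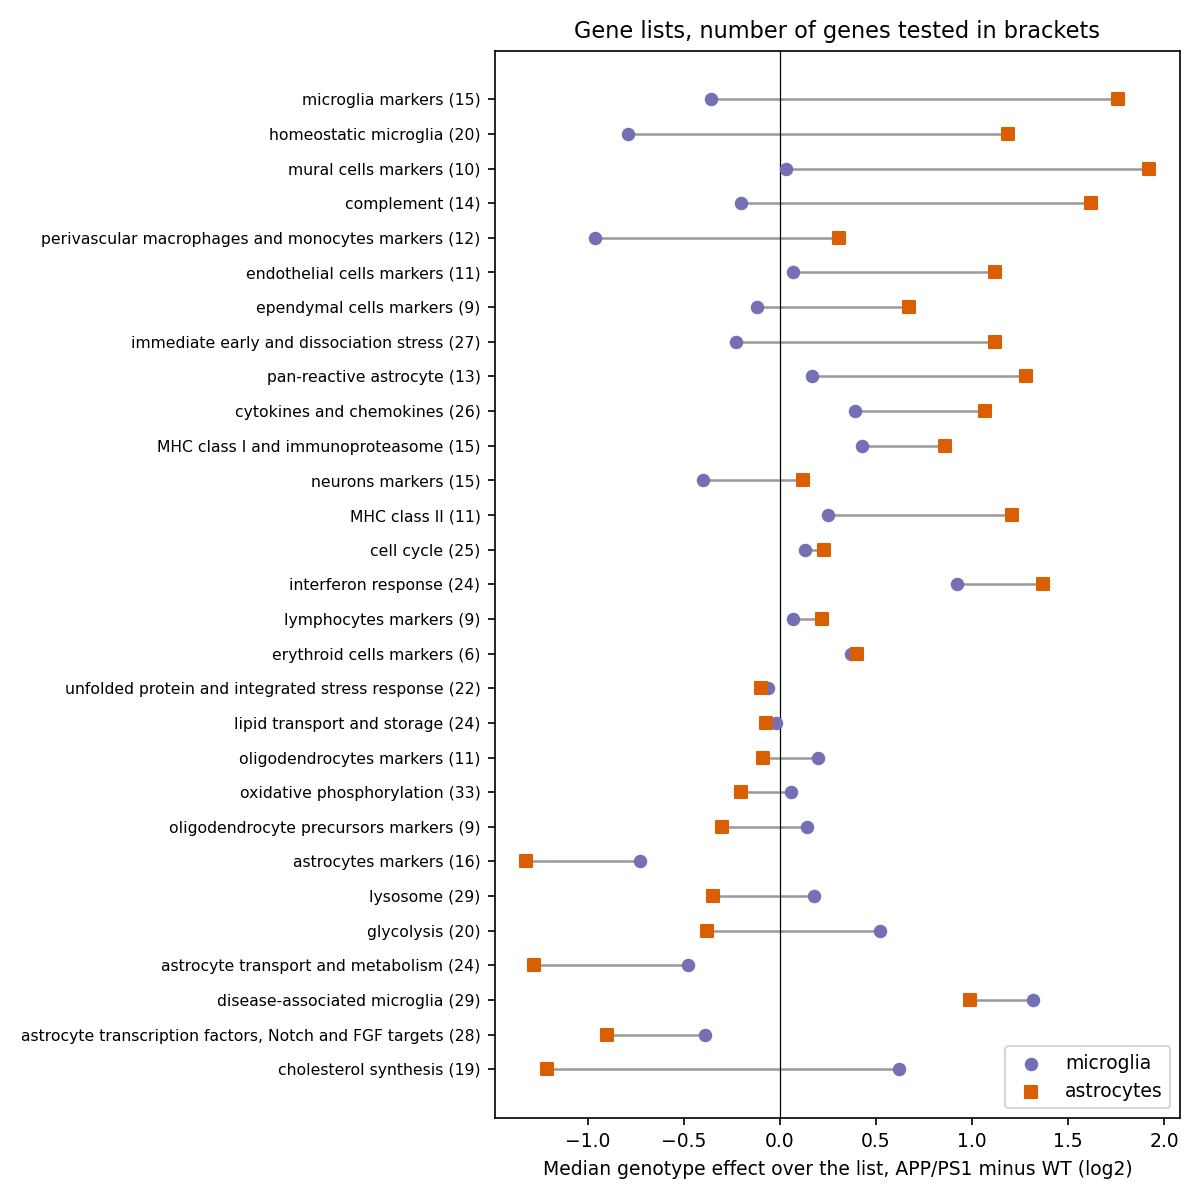
Median genotype effect (x axis, log2, APP/PS1 minus WT) of 29 gene lists in microglia (circles) and astrocytes (squares), ordered by the median difference, with the number of genes tested in brackets. The widest gap with the microglia effect above the astrocyte effect is that of cholesterol synthesis (0.62 and -1.21), and the widest gaps the other way include microglia markers (-0.36 and 1.76) and homeostatic microglia genes (-0.79 and 1.19).

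The remaining lists are summarised by counts, to be read against the 28.4% of all genes whose effects differed. That share rose with brightness, to 55.8% at a highest group mean of 12 to 14 and 67.1% at 14 and above. Oxidative phosphorylation genes (48.5%, median WT levels 13.46 in astrocytes and 12.01 in microglia) lay below these shares of bright genes. So did class I antigen presentation genes (46.7%, median WT levels 12.11 and 12.92). Lysosome genes fell in 14 and rose in 5 of 29 cases in astrocytes and rose in 13 and fell in 3 in microglia, and 21 differed (18 with the lower effect in astrocytes); the cathepsin gene Ctsb (-0.63 ± 0.18 and 1.21 ± 0.14) and the tetraspanin gene Cd63 (-0.82 ± 0.13 and 0.96 ± 0.10) went in opposite directions. Oxidative phosphorylation genes fell in 16 and rose in 2 of 33 in astrocytes, fell in 1 and rose in 3 in microglia, and differed in 16. Complement genes rose in 10 and fell in 1 of 14 in astrocyte samples, rose in 2 and fell in 2 in microglia, and 9 differed, the subcomponent gene C1qa, itself a microglia marker, by 2.51 ± 0.38. Of 26 cytokine genes 18 differed (13 with the higher effect in astrocytes), of 15 class I antigen presentation genes 7, of 24 lipid transport genes 10, and of 28 astrocyte transcription factor, Notch and FGF genes 16. Near the share of all genes were class II genes (3 of 11, 27.3%), unfolded protein response genes (7 of 22, 31.8%) and cell cycle genes (6 of 25, 24.0%). Within these, the cyclin gene Ccnd1 rose in astrocytes (0.93 ± 0.10) and fell in microglia (-0.45 ± 0.08), while the pseudokinase gene Trib3 rose in both and more in microglia (1.03 ± 0.14 and 3.25 ± 0.11). Of the markers of other cells, 7 of 10 mural, 7 of 11 endothelial, 5 of 12 perivascular macrophage and 5 of 9 ependymal genes differed. Below the share of all genes were neuronal (3 of 15, 20.0%), oligodendrocyte (2 of 11, 18.2%) and precursor markers (2 of 9, 22.2%), and 0 of 9 lymphocyte and 0 of 6 erythroid markers passed in limma, with 1 of each at an unadjusted p below 0.05.

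The direction of the opposite changes went with the cell type in which a gene was higher in WT mice. Of all genes tested, 1206 (5.7%) were at least 4-fold higher in WT microglia and 3033 (14.3%) at least 4-fold higher in WT astrocytes. Among the 516 genes that rose in astrocytes and fell in microglia, 185 (35.9%) were of the first kind and 29 (5.62%) of the second. Among the 406 that rose in microglia and fell in astrocytes, 5 (1.23%) were of the first kind and 170 (41.9%) of the second. Of the 624 genes that rose in both, 124 (19.9%) were of the first kind and 116 (18.6%) of the second. As the first kind is smaller, these were 10.3% of it and 3.82% of the second kind, against 2.95% of all genes tested. The WT levels enter both this grouping and the effects, so these shares are a description.

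How many genes passed depended on their brightness. The effects differed in 2.33% of 3215 genes whose highest group mean lay under 4, in 26.1% of 3485 genes between 6 and 8, and in 67.1% of 848 genes at 14 and above. The median standard error of the difference was 0.563, 0.181 and 0.149 in these classes. The share of genes that changed in opposite directions went from 0.218% to 11.6% and that of genes that changed the same way from 0.156% to 18.5% between the dimmest and the brightest class, and the correlation of the effects from r = 0.022 to r = 0.215 across genes. The genes given with effects above each had at least 1 group mean above 8.

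The number of arrays measured went along with brightness. Of the genes tested, 16370 had values on all 7 microglia arrays and 1179 on 3 only, with 1580 on 6, 1013 on 5 and 1029 on 4. Their median highest group mean was 8.99 with 7 arrays and 3.41 with 3. The effects differed in 34.2% of genes measured on 7 microglia arrays, 13.6% on 6, 8.09% on 5, 4.47% on 4 and 5.68% on 3. Astrocyte values were nearly complete, with 20830 genes on 4 arrays, 316 on 3 and 25 on 2. Other probes of genes with a difference had the same sign in 3170 of 3451 cases (91.9%) and in 1489 of 1529 (97.4%) at a mean level of 8 or above.

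**Figure D5:**
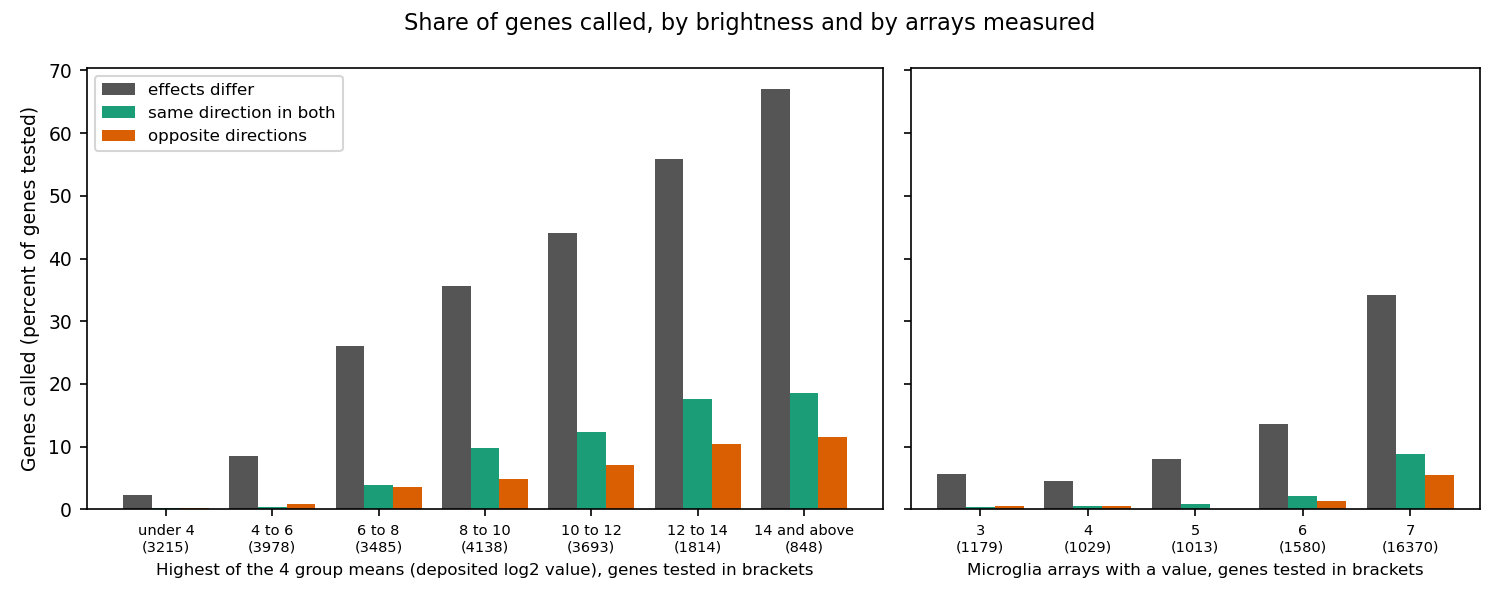
Share of genes tested (y axis, percent) whose effects differed (grey), that changed the same way in both cell types (green) or that changed in opposite directions (orange), by the highest of the 4 group means (left, deposited log2 value) and by the number of microglia arrays with a value (right). By brightness (left) all 3 shares are lowest in the dimmest class. The share with a difference reaches 67.1% at 14 and above and 34.2% with 7 arrays.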

How the data were processed

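The deposited table holds log2 values of the authors, 1 column per sample from 11 dual-colour arrays; 0 columns were left unused. The submitters' processing notes name limma with no version; how background and normalization were handled is not given in the sources used here. Of 43020 probes, 33026 named 1 gene and 9994 none; the identifiers of 32438 matched the RefSeq table and 0 symbols changed. Sample medians lay between 6.24 and 6.26, so that a shift of all genes could not be seen.

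Interaction and genotype effects were fitted with limma 3.58.1 (R 4.3.3, statmod 1.5.0) on the 22 samples, the array entering as a fixed block and dye as a covariate, 1 spread per gene for both cell types (8 residual degrees of freedom), two-sided, Benjamini-Hochberg over genes, threshold 0.05. Tables and figures used Python 3.11.15 with pandas 2.3.3, numpy 2.4.6 and matplotlib 3.10.9. The labels place the 2 samples of a number on 1 array. As a check of this pairing, same-array samples, centred within groups, correlated at a median r of 0.23 (0.00 to 0.50) in astrocytes and 0.47 (0.37 to 0.63) in microglia, and samples of other arrays at -0.12 and -0.20. On simulated data the fit recovered 50% of 100 genes with a true difference of 1 log2 unit and 78% of 100 with 2. It called 0.0286% of the 20971 unchanged ones among 21171 genes. The simulated noise was independent and had the same spread in both cell types. Far fewer genes differed there than the 28.4% that passed in the data, so these rates need not hold for the data.

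The question, the 18 pathway lists, the 11 marker lists and the rule for named genes were chosen with earlier results of these data known. The rule, for genes on 4 astrocyte and at least 6 microglia arrays with a group mean of 8 or above, took the 10 largest differences in each direction without overlapping arrays, and the 10 genes of each same-direction and opposite-direction class with the largest smaller effect. It added up to 4 genes of each pathway list, the 2 brightest of each marker list and 13 chosen genes; list members outside it are named as examples. Of 514 listed genes, 32 had no probe in the table used here. Promoters came from RefSeq (GRCm38.p6), 250 bases before to 50 after a start. Alternatives covered the block, dye, normalization, spread, filters, probes, slides and single arrays left out.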

Additional observations from a re-analysis of the deposited data

Results flagged for a closer look

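The difference of genotype effects, astrocytes minus microglia, passed the test of the interaction for 17 of the 21 genes described sample by sample. It was negative for Sqle (-3.94), Idi1 (-2.94), Hmgcs1 (-2.79), Fabp5 (-5.45), Tpi1 (-2.12), Psat1 (-3.35), Vegfa (-3.49) and Gpnmb (-5.52). It was positive for Selplg (3.20), Txnip (2.52), Tmem119 (2.45), Klf2 (2.77), Tmem204 (2.66), Ccl4 (3.92), Rgs1 (3.26), Clec7a (1.34) and Bst2 (1.06).

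In 8 of 84 groups of samples of these genes, 1 sample stood far from the others. Chance gives this in about 1 in 20 groups, but the 84 groups share the same 22 samples and are not independent. The count is therefore no measure of an excess over chance. Microglia replicate 4 was the lowest of its group for Sqle in WT (5.57), for Bst2 in WT (11.70), and for Psat1 (12.06) and Clec7a (14.07) in APP/PS1. Among astrocytes, APP/PS1 replicate 3 was highest for Hmgcs1 (13.24) and lowest for Txnip (10.53), APP/PS1 replicate 1 was highest for Clec7a (9.83) and WT replicate 2 was highest for Vegfa (13.92).

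Probes with no gene name were used in no comparison. Of 9220 of them tested, 1421 (15.4%) passed for a difference between the cell types, 687 with the higher effect in astrocytes and 734 in microglia.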

How the results depend on the processing

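Each result was recomputed under 24 alternatives, of which the arrays matched in Eif2s3y were chosen after seeing the data. Of 112 named genes with a difference, 71 kept it in every alternative that gave a value and 111 never changed sign. With the mean of all probes the difference of Lilrb4a, an inhibitory receptor gene, turned to -0.685 (limma adjusted p = 0.219), and that of the microglial lectin gene Siglech to 1.066 (0.0156); their probes disagreed.

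The 6010 genes with a difference became 1564 with no replicate block, so without the pairing by array, 2746 with microglia slide 2 alone and 3538 on the matched arrays, and 4579 to 6016 with single arrays left out. The 1495 genes that changed the same way became 227, 260 and 643 in these settings, 548 with slide 1 alone, and 1071 to 1542 with single arrays left out. The 922 that changed in opposite directions became 164, 198 and 429, 397 with slide 1 alone, and 720 to 903. The slide and matched settings use fewer arrays. Of the 1564 genes passing without the block, 1561 also passed with it. Dim genes, with a median standard error of 0.563 where the highest group mean lay under 4, limit what could be detected.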
